A study of Mus musculus with 8 samples.

Results

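The 8 genes described here were Soat2 (ENSMUSG00000023045), Soat1 (ENSMUSG00000026600), Hmgcs1 (ENSMUSG00000093930), Idi1 (ENSMUSG00000058258), Sqle (ENSMUSG00000022351), Srebf2 (ENSMUSG00000022463), Insig1 (ENSMUSG00000045294) and Vldlr (ENSMUSG00000024924). They act in the synthesis, uptake and esterification of cholesterol and were taken by symbol from the 32285 genes of the count tables. They were chosen with the difference between genotypes in cardiomyocytes, fibroblasts, endothelial cells (ECs), macrophages and adipocytes already known. Their values in these 5 cell types are therefore given as a description, without a test. A list of 50 other genes of the same pathway was tested beside them.

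Single-nucleus RNA sequencing (snRNA-seq) was performed on whole hearts of 4 wild-type (WT) and 4 Tafazzin-knockout (Taz-KO) male mice, all 9 weeks old, with 1 library per mouse. Tafazzin remodels cardiolipin, a phospholipid of the inner mitochondrial membrane, and its loss causes Barth Syndrome. The strain of the mice, the deleted exons and the cells that carry the deletion are not given in the sources used here, and the study describes cardiac impairment in this model as arising later than the age sampled. The question put to the data was how the deletion changes gene expression in each cell type of the heart, and here it was put to the cholesterol genes.

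Cholesterol is built in many steps from acetyl-CoA through mevalonate, squalene and lanosterol, or it is taken up with lipoproteins by receptors at the cell surface. When sterols are scarce, the factor SREBF2 is escorted by SCAP from the endoplasmic reticulum, cleaved, and switches on the synthesis genes; when sterols are plentiful, INSIG proteins hold the complex back. Spare cholesterol is joined to a fatty acid by SOAT1 or SOAT2 and stored as cholesteryl ester in droplets. SOAT1 is the widespread form, and SOAT2 is known mainly from the intestine and the liver.

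The libraries held 3492 to 36308 barcodes each, and 151264 nuclei were kept in all. The study kept fewer nuclei after its own quality control, and whether every barcode kept here is a nucleus was not tested. Total UMIs (unique molecular identifiers, counted RNA molecules) ranged from 20025456 to 348080773 per mouse, and mitochondrial genes took 1.57% to 23.65% of them. Taz-KO mice 4685 and 5301 stood apart, with 3492 and 5571 barcodes against 21190 or more in every other library. The main fold changes and counts of calls were also computed without them. Any pair of libraries shared at most 1.045% of the barcodes of the smaller one. Cardiomyocytes comprised 29023 nuclei (177 to 7136 per mouse), fibroblasts 38477, ECs 21272, macrophages 12203 and adipocytes 920, and 26.09% of nuclei stayed unnamed. Only 8 adipocytes came from Taz-KO mouse 4685, so adipocytes were compared between 4 WT and 3 Taz-KO mice. Of the 10 markers that the rule names, 9 were 1.75 or more times higher in their own cell type than in the next, such as Ttn, 5.00 times higher in cardiomyocytes. Bicc1 was nearly as high in mesothelial cells as in fibroblasts (1.01 times).

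The knocked-out gene was checked first. Levels of Taz are given in CPM (UMIs of a gene per 1000000 UMIs, mitochondrial genes left out). Over all barcodes of a library, before any were removed, they lay between 40.8 and 42.0 in the WT mice and between 22.7 and 31.5 in the Taz-KO mice. In cardiomyocytes they lay between 48.6 and 54.5 CPM in WT and between 28.0 and 45.1 CPM in Taz-KO mice, with mouse 4685 the highest of the latter. The groups overlapped in neither, and the UMIs that remained in Taz-KO nuclei may lie outside the deleted part, which is not given in the sources used here.

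Promoter sequence from RefSeq (mouse GRCm38.p6) was at hand for 6 of the 8 genes, and Soat2 and Sqle had no entry. Windows from 250 bases before to 50 bases after the start site were searched on both strands for TCACNCCA, the core of a sterol response element bound by SREBF2, for CCAAT, the NF-Y box that often accompanies it, and for the E-box CACGTG. The sterol core was found in Hmgcs1 and Srebf2, in 3 of 35 other pathway genes (Msmo1, Stard3 and Apoe), and in 4.36% of all 32851 windows. The CCAAT box was found in 6 of the 6 genes with a promoter, in 22 of 35 others and in 37.4% of all windows. The E-box was found in Insig1, in 8 of 35 others and in 7.15% of all windows. A gene was counted if any of its windows matched, and some genes had several windows. The counts of genes are therefore not directly comparable with the shares of all windows. These are letter matches and were not tested as binding sites. The part of a window from 200 bases before the start site up to the annotated gene is shown for 5 genes. Hmgcs1 (chr13:119690151-119690350, plus strand) and Srebf2 (chr15:82147069-82147180, plus strand) are shown since they hold the core. Insig1 (chr5:28071212-28071362, plus strand) is shown for its level in adipocytes, as are Nsdhl (chrX:72918321-72918520, plus strand) and Sc5d (chr9:42264301-42264500, minus strand), the synthesis genes that rose there. Capitals mark the sterol core, the CCAAT box (ATTGG on the other strand) and the E-box. Matches outside these stretches are not shown, such as the CCAAT box of Insig1 (-216 from the start site) and a box of Hmgcs1 (-237).
Hmgcs1: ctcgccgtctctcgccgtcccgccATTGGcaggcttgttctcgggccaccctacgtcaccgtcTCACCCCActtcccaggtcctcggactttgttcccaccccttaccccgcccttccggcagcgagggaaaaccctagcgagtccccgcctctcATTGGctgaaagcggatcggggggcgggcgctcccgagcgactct
Srebf2: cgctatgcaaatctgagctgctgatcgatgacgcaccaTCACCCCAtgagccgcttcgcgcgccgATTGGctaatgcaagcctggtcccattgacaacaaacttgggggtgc
Insig1: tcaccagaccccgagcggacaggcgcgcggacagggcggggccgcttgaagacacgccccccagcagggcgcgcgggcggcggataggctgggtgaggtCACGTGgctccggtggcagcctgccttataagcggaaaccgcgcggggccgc
Nsdhl: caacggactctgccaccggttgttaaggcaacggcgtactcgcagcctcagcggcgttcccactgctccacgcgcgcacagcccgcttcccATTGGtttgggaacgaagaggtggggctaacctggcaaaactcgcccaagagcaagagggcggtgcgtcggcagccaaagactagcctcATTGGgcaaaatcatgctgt
Sc5d: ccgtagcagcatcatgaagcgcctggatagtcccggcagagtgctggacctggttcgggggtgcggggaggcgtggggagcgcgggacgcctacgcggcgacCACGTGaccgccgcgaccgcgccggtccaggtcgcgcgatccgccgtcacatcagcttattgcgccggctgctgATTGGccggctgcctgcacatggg

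Soat2, which esterifies cholesterol, was the gene of the 8 with the largest fold change between genotypes in cardiomyocytes. In cardiomyocytes it stood at 61.7, 42.1, 69.1 and 50.4 CPM in Taz-KO mice 4685, 4910, 5300 and 5301. In WT mice 4686, 4909, 5355 and 5356 it stood at 0.122, 0.132, 0.442 and 0.371 CPM. Every Taz-KO mouse thus lay far above every WT mouse. The means were 55.8 ± 12.0 CPM in Taz-KO and 0.267 ± 0.164 CPM in WT (SD, n = 4 each), a ratio of 209, and the log2 fold change was 7.63 with a standard error (SE) of 0.40. Without both small libraries the log2 fold change of Soat2 was 7.53. The WT level rested on 48 UMIs in all and the Taz-KO level on 7562.

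Soat2 was also higher in Taz-KO mice in the other cell types, at a lower level. In fibroblasts the means were 9.75 ± 3.52 CPM in Taz-KO and 1.24 ± 0.434 CPM in WT. ECs had 9.92 ± 6.49 against 0.884 ± 0.591 CPM, and macrophages 12.4 ± 4.56 against 1.70 ± 0.850 CPM (SD, n = 4 each). The 2 groups did not overlap in any of these 3 cell types. The log2 fold changes of Soat2 were 2.99 (SE 0.33), 3.55 (SE 0.57) and 2.72 (SE 0.40), or 3.29, 3.91 and 2.72 without both small libraries and 1.84, 2.87 and 1.84 when an ambient share was subtracted. In adipocytes Soat2 stood at 8.44, 16.4 and 0 CPM in Taz-KO mice 4910, 5300 and 5301, and at 0, 1.25, 0.877 and 0 CPM in WT mice 4686, 4909, 5355 and 5356. The groups overlapped there, since no UMI was counted in Taz-KO mouse 5301, whose 22 adipocytes allow a level of up to 17.0 CPM (3 counts, counting error only). With 5 UMIs in WT and 34 in Taz-KO, Soat2 did not pass the filter on low counts in adipocytes.

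Cardiomyocyte RNA was present in the sums of every other cell type. The 7 cardiomyocyte markers (Ryr2, Ttn, Myh6, Actn2, Tnnt2, Rbm20 and Mlip) all had UMIs in fibroblasts, where they summed to 6461 to 11350 CPM in WT and 3014 to 10770 CPM in Taz-KO mice, against 49860 to 67700 and 40450 to 57960 CPM in cardiomyocytes. Soat2 was therefore also expressed per 10000 UMIs of Ttn and Ryr2. In Taz-KO cardiomyocytes this ratio was 22.1, 12.8, 23.2 and 12.6 in mice 4685, 4910, 5300 and 5301. Relative to the cardiomyocytes of the same mouse, it was 1.06 to 2.85 times as high in fibroblasts, 0.592 to 1.39 in ECs, 1.04 to 2.68 in macrophages and 0 to 1.31 in adipocytes. In fibroblasts and macrophages every Taz-KO mouse thus lay above its own cardiomyocyte value, and in ECs and adipocytes the mice lay on both sides of it. At that value the Ttn and Ryr2 UMIs of fibroblasts would bring 412 Soat2 UMIs, and 559 were counted; the values were 355 and 454 in ECs, 250 and 277 in macrophages, and 27.3 and 34 in adipocytes. How much of the Soat2 level outside cardiomyocytes came with cardiomyocyte RNA was not resolved.

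In WT mice cardiomyocytes had the lowest mean of Soat2, although they overlapped adipocytes, in which mice 4686 and 5356 had no UMI. Relative to the cardiomyocytes of the same mouse, the ratio to Ttn and Ryr2 was 21.7 to 56.1 times as high in WT fibroblasts, 5.43 to 65.0 in ECs and 19.8 to 112 in macrophages. Every WT mouse lay above its cardiomyocyte value in these 3 cell types. The multiples rest on few counts, 6 to 17 Soat2 UMIs per WT mouse in cardiomyocytes. Over all WT mice, fibroblasts, ECs and macrophages held 166, 47 and 35. In all, 448 of 84906 WT nuclei held a Soat2 UMI. Of these, 2.46% had a barcode that was also present in a Taz-KO library, against 2.08% of all WT nuclei. In WT mice Soat2 overlapped between all neighbours in the order of the 5 cell types, and in Taz-KO mice between all but cardiomyocytes and macrophages, so the rest of the order is not resolved.

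**Figure D1:**
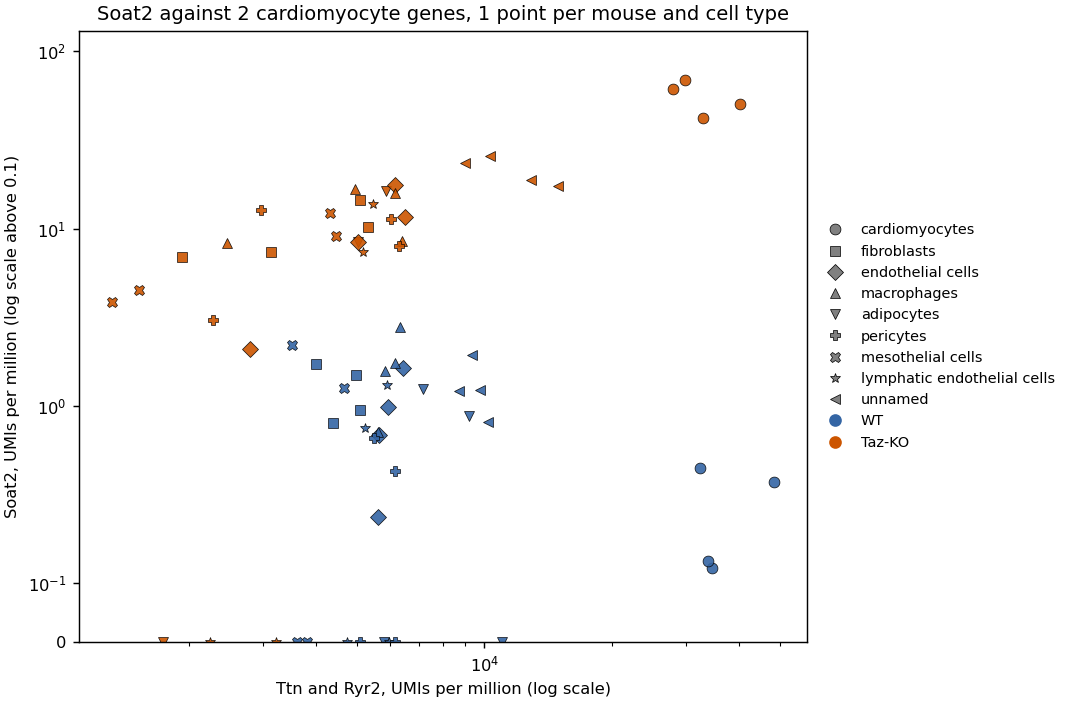
Soat2 (CPM, log scale above 0.1 and linear below) against the sum of Ttn and Ryr2 (CPM, log scale), with 1 point per mouse and cell type, the shape for the cell type and the colour for the genotype. The 4 Taz-KO cardiomyocyte points lie at 42.1 to 69.1 CPM at the upper right, and the 4 WT cardiomyocyte points lie at 0.122 to 0.442 at the lower right.

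The share of cardiomyocytes with at least 1 Soat2 UMI was 42.1% ± 17.8 in Taz-KO mice (26.8% to 67.8%) and 0.294% ± 0.137 in WT mice (SD, n = 4 each). Nuclei differed in depth, with a median of 6586 UMIs in Taz-KO mouse 5301 and 24133 in Taz-KO mouse 4685. After every nucleus was thinned to 1000 UMIs, the shares were 4.81% ± 1.21 and 0.0460% ± 0.0285. The gap between genotypes was present at equal depth. For comparison, 1.45% ± 0.565 of Taz-KO and 0.128% ± 0.0973 of WT macrophages held a Soat2 UMI at this depth, and 0.797% ± 0.535 and 0.142% ± 0.0517 of fibroblasts. The 72 Taz-KO cardiomyocytes with fewer UMIs were left out of the thinned shares.

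Soat2 was found in all 7 cardiomyocyte clusters of the Taz-KO mice and was not confined to 1 of them. Its mean level ranged from 39.8 CPM (cluster 20, led by Fgf12 and Tmem163) to 71.7 CPM (cluster 10, led by Ptprt and Tenm4). In WT mice the cluster means lay between 0.157 and 0.846 CPM. Every WT mouse with a value in a cluster lay below every Taz-KO mouse there, although only 2 or 3 Taz-KO mice had one in clusters 20, 22 and 23. Cluster 10 comprised 19.5% of Taz-KO and 4.33% of WT cardiomyocytes, and Vldlr was also highest there in Taz-KO mice, at 546 CPM against 245 CPM in WT. The genes that differ between genotypes took part in the clustering, so cluster sizes are given as counts only.

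**Figure D2:**
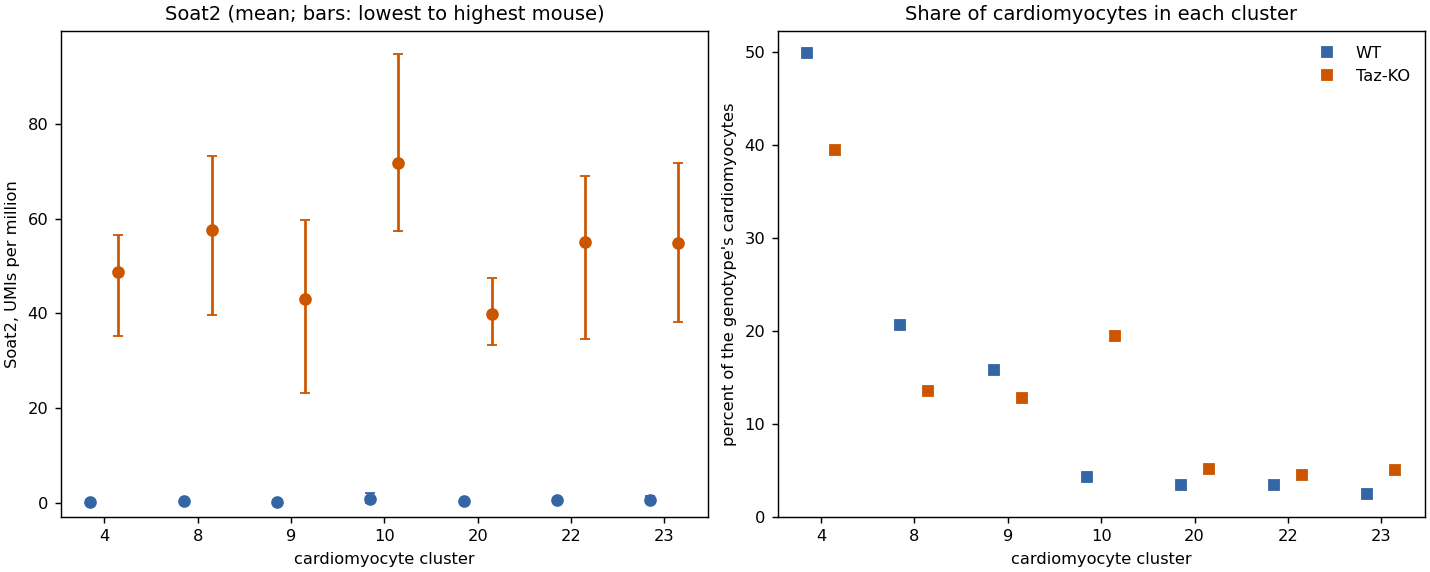
Left, Soat2 in the 7 cardiomyocyte clusters (CPM; points, mean over mice; bars, lowest to highest mouse). Right, the percentage of the cardiomyocytes of each genotype in each cluster. Soat2 means in Taz-KO lie between 39.8 and 71.7 CPM in all 7 clusters and those in WT between 0.157 and 0.846.

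Genes of the amino acid and unfolded protein stress response also differed between genotypes. The list of 13 (among them Asns, Ddit3, Trib3, Fgf21 and Gdf15) was chosen with earlier results of these data known. Its counts are therefore a description and support nothing. Of the 13 genes, 11 rose in Taz-KO cardiomyocytes, beside 8.93% of all genes that rose there. Their summed level was 366 to 644 CPM in Taz-KO and 70.4 to 126 CPM in WT mice, and the groups did not overlap. In fibroblasts 5 of 12 genes tested rose, beside 0.332% of all genes, with sums of 162 to 683 CPM in Taz-KO and 160 to 213 CPM in WT, which overlapped. In ECs 8 of 13 rose, beside 0.334% (160 to 773 against 122 to 186 CPM), and in macrophages 4 of 12, beside 0.177% (138 to 897 against 117 to 177 CPM), and these sums overlapped as well. In adipocytes 4 of 10 rose, beside 0.794% of all genes (159 to 523 against 100.4 to 171 CPM), again with overlap. In lymphatic endothelial cells 3 of 7 rose, beside 0.153% of all genes called in either direction, and the sums of 238 to 694 CPM in Taz-KO and 83.3 to 167 CPM in WT mice did not overlap. In pericytes 2 of 10 rose, beside 0.125%, and in mesothelial cells 0 of 8, beside 0.0808%, and their sums overlapped (110.1 to 755 against 111 to 191 CPM and 110.4 to 558 against 111 to 154 CPM). Of those 8 genes in mesothelial cells, 6 were higher at an unadjusted p under 0.05 in edgeR, and DESeq2 called 3 at an adjusted p under 0.05. The other calls are of edgeR at an adjusted p under 0.05, and the part of the list in the Soat2 level was not tested.

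WT mice 5355 and 5356 stood apart from the other 6 mice in some clock genes, such as Arntl and Per2, though not in all 14. In cardiomyocytes Arntl, the activator of the clock, stood at 42.5 and 96.8 CPM in them and at 3.39 to 9.36 CPM in the others. Per2, a repressor of the clock, stood at 6.06 and 4.43 CPM in them and at 22.5 to 53.8 CPM in the others. For Hlf they stood at 18.1 and 22.1 CPM, within the 16.9 to 36.7 CPM of the Taz-KO mice. WT mice 4686 and 4909 were the ones apart there, at 104 and 69.1 CPM. Mice 5355 and 5356 thus differed from the other 2 WT mice. In none of the 8 cell types did any of the 14 clock genes pass the test between genotypes. Without mice 5355 and 5356 the log2 fold change in cardiomyocytes was 8.64 for Soat2 and 0.87 for Vldlr.

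Soat2 lies at chr15:102150526-102163469 (plus strand, GRCm38). The level of the genes within 50 kb of it was compared in cardiomyocytes to see whether the region changed as a whole. Igfbp6, its neighbour upstream, had the same mean in both genotypes (37.4 ± 19.2 CPM in WT and 37.4 ± 26.9 CPM in Taz-KO, adjusted p = 0.913). Csad fell, from 69.4 ± 11.6 to 45.2 ± 1.16 CPM (log2 fold change -0.74, adjusted p = 0.0124). Tns2, Spryd3 and Zfp740 were not called, with adjusted p of 0.210, 0.776 and 0.626. None of the 5 neighbours was higher in Taz-KO by the test.

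Soat1, the second cholesterol acyltransferase (chr1:156424525-156474331, minus strand), did not share the gap. In cardiomyocytes it stood at 7.58, 5.05, 7.43 and 2.38 CPM in Taz-KO mice 4685, 4910, 5300 and 5301, and at 6.62, 7.84, 7.28 and 3.30 CPM in WT mice 4686, 4909, 5355 and 5356. The groups overlapped, and the log2 fold change was -0.30 (SE 0.31). Macrophages had the highest level, 67.4 ± 13.9 CPM in Taz-KO and 53.8 ± 3.89 CPM in WT, and cardiomyocytes the lowest in both genotypes. In WT mice macrophages and cardiomyocytes each stood apart from their neighbours in this order, while fibroblasts, ECs and adipocytes overlapped. The log2 fold changes in the 4 other cell types lay between -0.35 (adipocytes) and 0.25 (macrophages).

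Soat2 was set against Soat1 within each cardiomyocyte sum, where sequencing depth cancels. There were 8.13, 8.34, 9.31 and 21.2 Soat2 UMIs per Soat1 UMI in Taz-KO mice 4685, 4910, 5300 and 5301, and 0.0184, 0.0169, 0.0607 and 0.113 in WT mice 4686, 4909, 5355 and 5356. Soat2 thus exceeded Soat1 in every Taz-KO mouse and Soat1 exceeded Soat2 in every WT mouse. The highest ratio, in Taz-KO mouse 5301, rested on 22 Soat1 UMIs. Per kilobase of gene (12.944 kb for Soat2 and 49.807 kb for Soat1, introns included), the ratio was 45.2 ± 24.3 in Taz-KO and 0.201 ± 0.174 in WT (SD, n = 4 each). The genes are related, and the longest identical run between their transcripts was 16 bases, over all 8 transcripts of Soat1 and 2 of Soat2, shown as the longest stretch that a read of spliced RNA could share. Introns, whose reads are also counted, were not compared.
Soat1 (positions 575 to 590) and Soat2 (positions 620 to 635): CCATGTTCCTGTCTAC

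**Figure D3:**
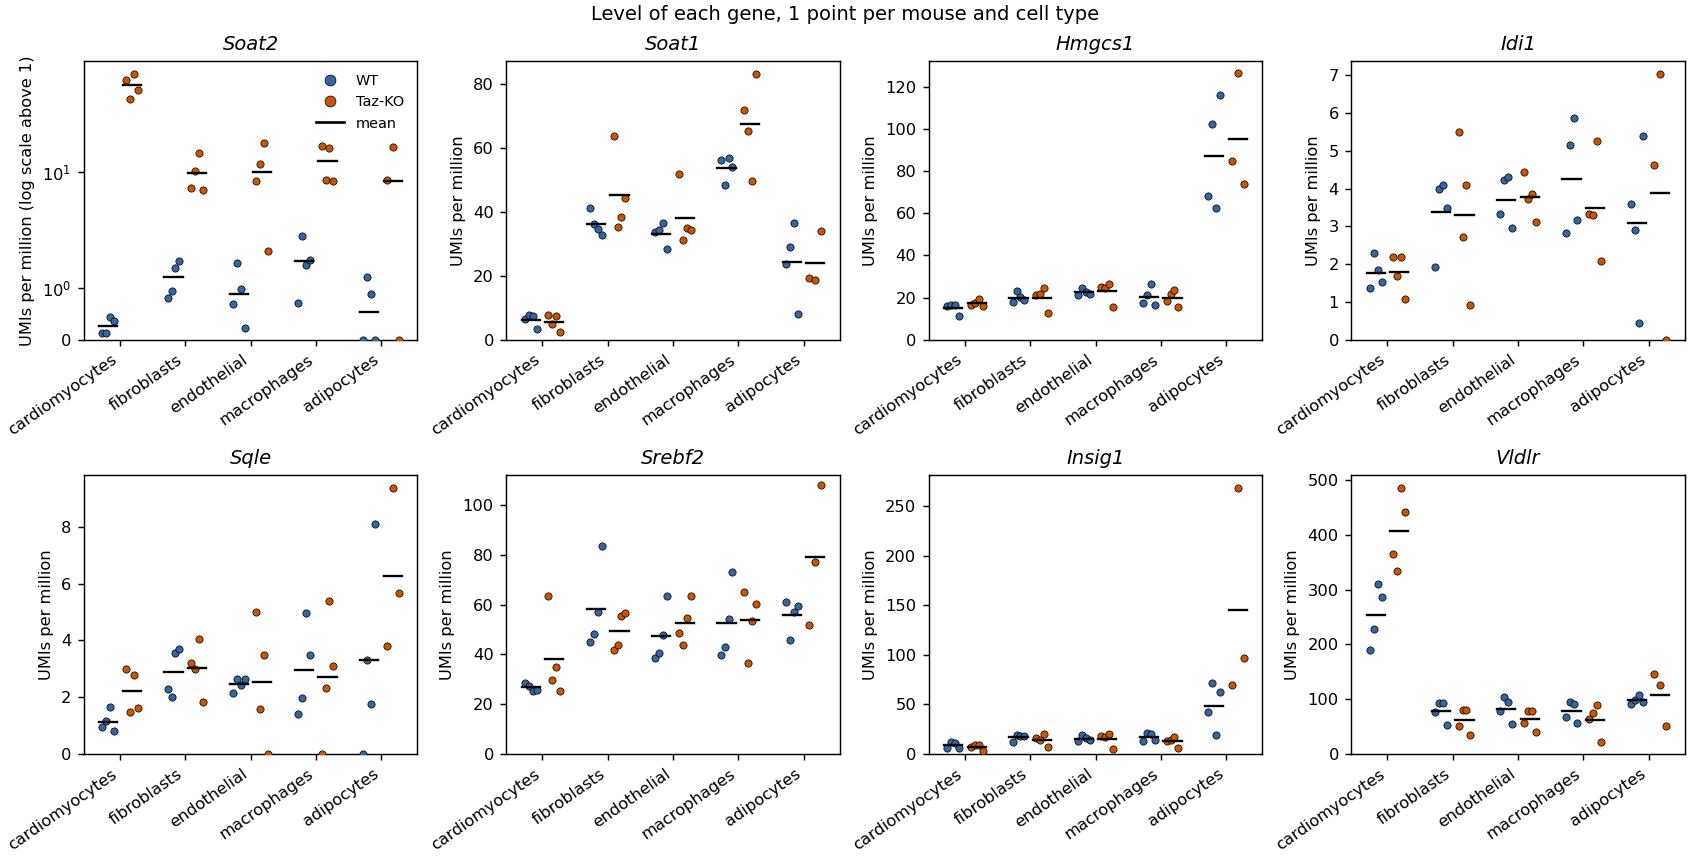
Level of each of the 8 genes (CPM, with a log scale above 1 for Soat2) in 5 cell types, with 1 point per mouse, blue for WT and orange for Taz-KO, and a line at the mean of each group. Soat2 and Vldlr separate the genotypes in cardiomyocytes, and Insig1 and Hmgcs1 are highest in adipocytes.

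Of the 3 synthesis enzymes among the 8 genes, Sqle had the largest log2 fold change in cardiomyocytes, and all 3 overlapped between genotypes. Hmgcs1, which makes HMG-CoA at the entry to the pathway, stood at 16.6, 17.7, 19.1 and 16.2 CPM in the cardiomyocytes of Taz-KO mice 4685, 4910, 5300 and 5301 and at 16.2, 16.6, 16.5 and 11.5 CPM in WT mice 4686, 4909, 5355 and 5356. The groups overlapped and the log2 fold change was 0.09 (SE 0.15). Adipocytes had by far the most Hmgcs1, 95.0 ± 27.8 CPM in Taz-KO (n = 3) and 87.3 ± 26.0 CPM in WT (n = 4), and they did not overlap the next cell type, ECs, in either genotype. An antisense gene, Gm48342, overlaps Hmgcs1. The libraries keep strand, and their counts are of the sense strand.

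Idi1, the isomerase of isopentenyl diphosphate, was low throughout, with means of 1.77 to 4.25 CPM in WT and 1.79 to 3.89 CPM in Taz-KO over the 5 cell types. Its log2 fold change in cardiomyocytes was -0.13 (SE 0.27). Sqle, which oxidizes squalene at a rate-limiting step, stood at 2.99, 1.48, 2.78 and 1.62 CPM in the cardiomyocytes of Taz-KO mice 4685, 4910, 5300 and 5301 and at 0.934, 1.16, 1.64 and 0.789 CPM in WT mice 4686, 4909, 5355 and 5356. The Taz-KO mean was higher (2.22 ± 0.778 against 1.13 ± 0.372 CPM), but 2 Taz-KO mice lay within the WT range. The log2 fold change was 0.80 (SE 0.31).

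Of the 2 regulators, Srebf2 encodes the transcription factor and Insig1 the protein that retains it. Srebf2 in cardiomyocytes stood at 63.3, 29.7, 34.95 and 25.2 CPM in Taz-KO mice 4685, 4910, 5300 and 5301, and within 25.4 to 28.5 CPM in all WT mice. Mouse 4685, with 177 cardiomyocytes, was the highest, and mouse 5301 lay below the WT range. The log2 fold change was 0.36 (SE 0.23), and it was 0.06 without mouse 4685. Across the other cell types the Srebf2 means were 47.5 to 58.4 CPM in WT and 49.4 to 79.0 CPM in Taz-KO.

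Insig1 had its highest level in adipocytes. It stood there at 69.6, 268 and 96.6 CPM in Taz-KO mice 4910, 5300 and 5301 and at 42.4, 71.1, 19.3 and 62.1 CPM in WT mice 4686, 4909, 5355 and 5356. The lowest Taz-KO mouse was just within the WT range, so the groups overlapped. The log2 fold change was 1.66 (SE 0.52), and 0.76 without Taz-KO mouse 5300. In the other 4 cell types the changes ran from -0.49 (cardiomyocytes, SE 0.30) to -0.01 (ECs, SE 0.29), and cardiomyocytes had the least Insig1.

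Vldlr, the receptor for very-low-density lipoprotein, was a cardiomyocyte gene in these hearts. It stood at 365, 335, 486 and 441 CPM in the cardiomyocytes of Taz-KO mice 4685, 4910, 5300 and 5301 and at 189, 227, 311 and 286 CPM in WT mice 4686, 4909, 5355 and 5356. All 4 Taz-KO mice lay above all 4 WT mice, and the log2 fold change was 0.56 (SE 0.22), or 0.46 without both small libraries. In fibroblasts, ECs and macrophages the Taz-KO means were lower instead (61.0 to 62.9 CPM against 77.7 to 82.6 CPM in WT), and the groups overlapped. The log2 fold changes there ranged from -0.44 to -0.36 and reached -1.27 (ECs) when ambient RNA was subtracted. Without both small libraries they were -0.04 in fibroblasts, -0.16 in ECs and -0.0039 in macrophages, so the lower level there rested largely on those libraries. Per Ttn and Ryr2 UMI, Vldlr in these 3 cell types of Taz-KO mice was 0.775 to 1.61 times its cardiomyocyte value, and in those of WT mice it was 1.58 to 3.15 times that value.

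Over the 8 genes, the genotypes did not overlap for 2 genes in cardiomyocytes (Soat2 and Vldlr) and for 1 (Soat2) in each of fibroblasts, ECs and macrophages. In adipocytes all 8 overlapped. The share of all genes whose groups did not overlap was not computed. By another measure, 15.5% of the 18477 genes tested in cardiomyocytes differed between genotypes at an adjusted p under 0.05 (edgeR quasi-likelihood test). That share was 0.422% in fibroblasts, 0.439% in ECs, 0.241% in macrophages and 1.92% in adipocytes. The 8 genes were chosen on these contrasts, so nothing is read from their count.

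Pericytes, mesothelial cells and lymphatic endothelial cells had no part in the choice of genes, although the mice were the same. Of the 8 genes, 6, 5 and 5 were abundant enough to be tested there and 0 passed, and 0 had an unadjusted p under 0.05 (edgeR; DESeq2 also called 0). The background was 0.125%, 0.0808% and 0.153% of all genes. Soat2 was not among those tested, since it had 4, 9 and 2 UMIs in WT and 71, 81 and 22 in Taz-KO mice. Its mean was 8.77 ± 4.30 against 0.271 ± 0.327 CPM in pericytes, 7.44 ± 3.99 against 0.863 ± 1.07 CPM in mesothelial cells and 5.30 ± 6.67 against 0.513 ± 0.633 CPM in lymphatic endothelial cells. The genotypes did not overlap in the first 2 of these. Per Ttn and Ryr2 UMI its level in Taz-KO mice was 0.812 to 1.93, 1.23 to 2.35 and 0 to 1.11 times that of their cardiomyocytes.

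The 50 other genes of the pathway were tested in the same fit. In cardiomyocytes 49 were abundant enough, 2 rose and 6 fell, beside 8.93% of all genes that rose and 6.52% that fell. Without a threshold, 14 had a positive and 35 a negative log2 fold change, with a median of -0.27 against -0.01 over all genes tested. The synthesis genes had 0 that rose and 1 that fell among 17, the regulators 0 and 0 among 9, the uptake and transport genes 1 and 3 among 14, and the genes of ester hydrolysis, efflux and related enzymes 1 and 2 among 9.

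**Figure D4:**
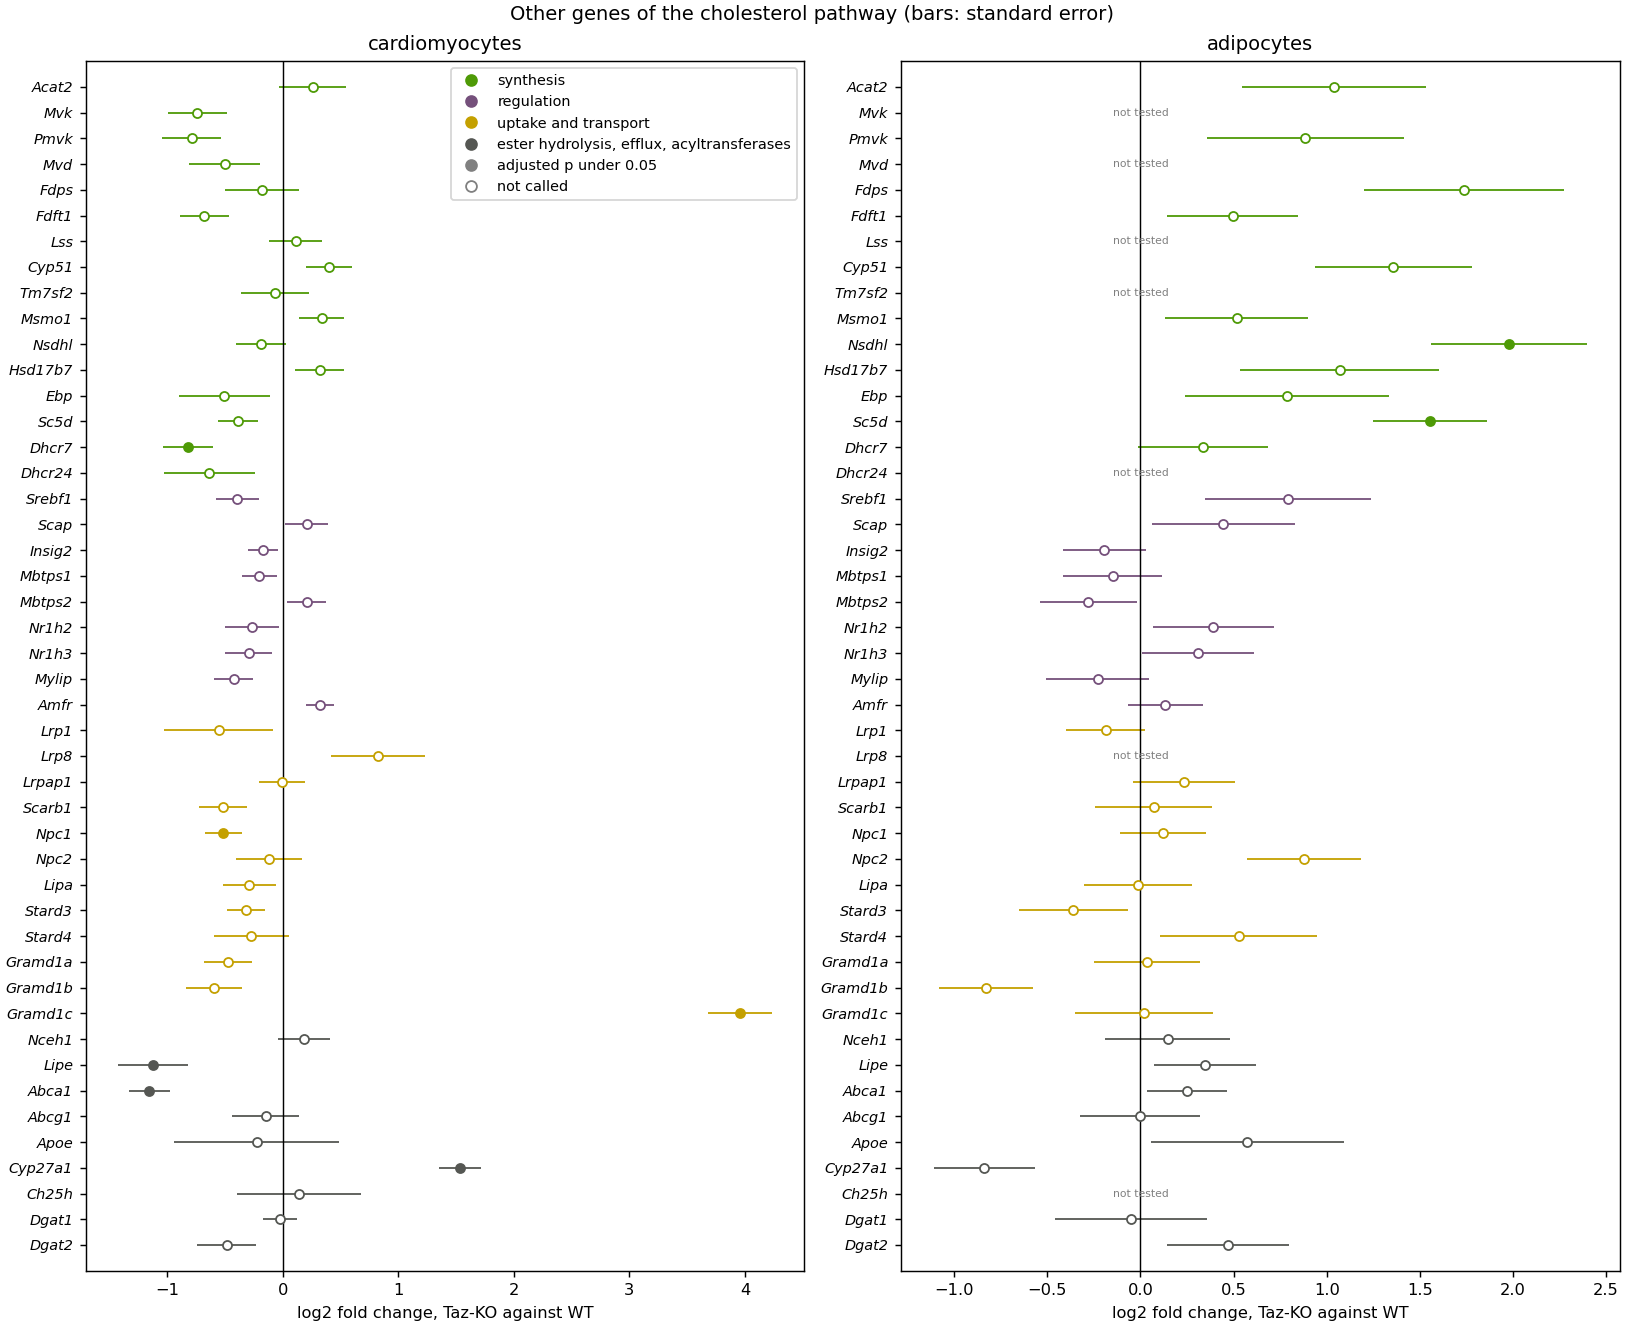
Log2 fold change of Taz-KO against WT (points) with its standard error (bars) for other genes of the pathway in cardiomyocytes and adipocytes, coloured by role, with filled points for an adjusted p under 0.05. Gramd1c (3.96) and Cyp27a1 (1.53) stand to the right in cardiomyocytes, and in adipocytes the synthesis genes drawn lie to the right of 0, Nsdhl (1.98) and Sc5d (1.56) with filled points.

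Gramd1c and Cyp27a1 were the genes that rose in cardiomyocytes. Gramd1c, of the family that carries cholesterol from the plasma membrane to the endoplasmic reticulum, stood at 40.3, 34.95, 25.3 and 31.7 CPM in Taz-KO mice 4685, 4910, 5300 and 5301 and at 1.36, 2.52, 1.64 and 2.32 CPM in WT mice 4686, 4909, 5355 and 5356. Every Taz-KO mouse was well above the WT range, with a log2 fold change of 3.96 (SE 0.28, adjusted p = 6.244e-06). Cyp27a1, the mitochondrial sterol 27-hydroxylase, stood at 106, 79.0, 81.6 and 92.4 CPM in Taz-KO and at 29.5, 33.6, 23.9 and 27.6 CPM in WT cardiomyocytes of the same mice. The groups did not overlap, and the log2 fold change was 1.53 (SE 0.18, adjusted p = 0.0002434). Both calls held in each of the 16 alternatives run, among them leaving out each mouse, both small libraries, and both WT mice that stood apart in clock genes. The log2 fold changes rose to 5.92 for Gramd1c and 2.24 for Cyp27a1 when an ambient share was subtracted. The relatives Gramd1a and Gramd1b were not called in cardiomyocytes.

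Neither gene was called in the other 4 cell types. Gramd1c had 15.2 ± 2.37 against 12.1 ± 3.91 CPM in fibroblasts, and Cyp27a1 had 126 ± 45.8 against 122 ± 14.5 CPM in macrophages. In WT mice Cyp27a1 was higher in macrophages than in cardiomyocytes without overlap. In Taz-KO mice these 2 cell types overlapped, at 89.3 to 189 and 79.0 to 105.6 CPM. In adipocytes Cyp27a1 was lower in every Taz-KO than in every WT mouse, 37.0 ± 18.0 (n = 3) against 76.9 ± 16.4 CPM (n = 4), with a log2 fold change of -0.84 (adjusted p = 0.121). The change in cardiomyocytes was tested against the change in each other cell type of the same mice with limma. For Gramd1c it was larger by 3.67 than in fibroblasts (adjusted p = 0.001145), by 3.79 than in ECs (0.004821), by 4.17 than in macrophages (0.01142) and by 3.62 than in adipocytes (0.009844). For Cyp27a1 it was larger by 1.44 than in fibroblasts (0.02931) and by 1.60 than in macrophages (0.03884), and the differences of 1.69 from ECs (0.255) and 2.59 from adipocytes (0.0613) were not called. Of all genes, 2.5%, 0.696%, 0.463% and 0.407% passed this test against fibroblasts, ECs, macrophages and adipocytes. For Gramd1c the call against macrophages was lost without WT mouse 4686, 5355 or 5356 (adjusted p 0.0590 to 0.0641), and that against adipocytes without Taz-KO mouse 4910 or 5300 (0.0577 and 0.0644). For Cyp27a1 the call against fibroblasts was lost without Taz-KO mouse 4685 or 5300 or any 1 WT mouse (0.0502 to 0.0909), and that against macrophages without Taz-KO mouse 4910 or 5300 or any 1 WT mouse (0.0986 to 0.161). Without both WT mice that stood apart in clock genes, the calls for Gramd1c against fibroblasts (0.0372) and adipocytes (0.0176) held, and those against ECs (0.184) and macrophages (0.357) and both for Cyp27a1 (0.273 and 0.645) were lost.

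Abca1, which exports cholesterol to apolipoprotein A-I, fell in cardiomyocytes. It stood at 39.1, 57.5, 51.9 and 33.7 CPM in Taz-KO mice 4685, 4910, 5300 and 5301 and at 89.3, 89.0, 108 and 87.2 CPM in WT mice 4686, 4909, 5355 and 5356. The groups did not overlap, and Abca1 fell by 1.16 on the log2 scale (SE 0.18, adjusted p = 0.001285). The call held without each mouse in turn. When an ambient share was subtracted, the log2 fold change was -1.95 and the adjusted p 0.0524.

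Npc1, which moves cholesterol out of lysosomes, fell from 60.8 ± 8.89 to 45.8 ± 6.80 CPM in cardiomyocytes (log2 fold change -0.52, SE 0.16, adjusted p = 0.04795). Dhcr7, an enzyme of the last steps of synthesis, fell from 6.31 ± 0.545 to 3.82 ± 1.22 CPM (-0.82, SE 0.22, adjusted p = 0.02618). Lipe, hormone-sensitive lipase, which also cleaves cholesteryl esters, fell from 44.3 ± 17.0 to 22.1 ± 5.57 CPM (-1.12, SE 0.30, adjusted p = 0.02887). For Lipe the genotypes overlapped, and for Npc1 and Dhcr7 they did not. An antisense transcript overlaps Lipe, and antisense genes overlap Npc1.

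Each of these 3 calls depended on the mice. The call for Npc1 was lost without any 1 mouse other than Taz-KO 4910 (adjusted p 0.0581 to 0.141), with no filter on low counts (0.0559) and with at least 2000 UMIs per barcode (0.0548). The call for Dhcr7 was lost without Taz-KO mouse 4685 or 5301 or WT mouse 4909, 5355 or 5356 (0.0531 to 0.0644), and that for Lipe without Taz-KO mouse 4685, 5300 or 5301 or WT mouse 5355 or 5356 (0.0506 to 0.0752). Without both WT mice 5355 and 5356 the log2 fold changes were -0.55 for Npc1 (adjusted p = 0.125), -0.76 for Dhcr7 (0.156) and -0.56 for Lipe (0.225). Without both small libraries they were -0.44 (0.178), -0.61 (0.118) and -0.93 (0.148).

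**Figure D5:**
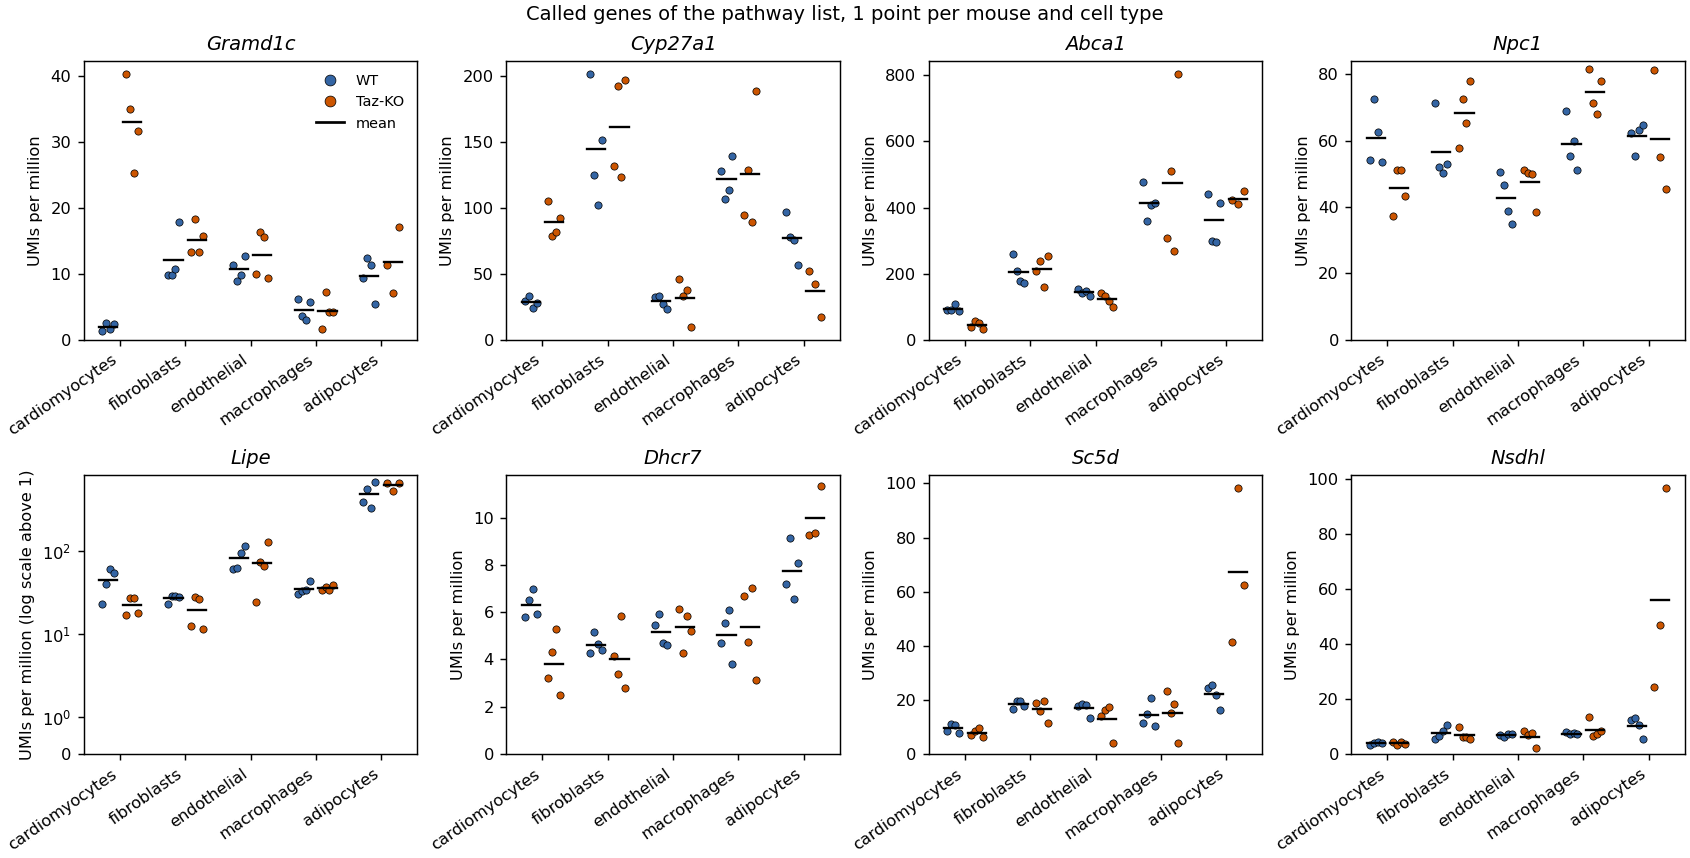
Level of 8 of the pathway genes that passed the test in cardiomyocytes or adipocytes (CPM, with a log scale above 1 for Lipe), with 1 point per mouse and cell type and a line at the mean. Gramd1c lies at 25.3 to 40.3 CPM in Taz-KO and at 1.36 to 2.52 in WT cardiomyocytes, and Nsdhl and Sc5d separate the genotypes in adipocytes.

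Scap, Insig2 and Srebf1, genes of the sterol sensor, were not called in cardiomyocytes. Scap, the escort of SREBF2, had 23.0 ± 4.47 CPM in Taz-KO and 18.2 ± 0.733 CPM in WT (log2 fold change 0.20, adjusted p = 0.527). Insig2 had 28.8 ± 5.15 and 29.6 ± 3.11 CPM (-0.17, adjusted p = 0.426), and Srebf1 had 9.71 ± 2.76 and 11.5 ± 0.939 CPM (-0.39, adjusted p = 0.190).

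In adipocytes 42 of the 50 genes were tested and 2 rose, both of late sterol synthesis, beside 0.794% of all genes that rose there. Nsdhl, which removes methyl groups from the sterol ring, stood at 24.5, 46.8 and 96.6 CPM in Taz-KO mice 4910, 5300 and 5301 and at 12.2, 12.9, 10.5 and 5.402 CPM in WT mice 4686, 4909, 5355 and 5356. Sc5d, the sterol C5-desaturase, stood at 41.3, 98.4 and 62.5 CPM in Taz-KO and at 24.4, 25.4, 21.9 and 16.2 CPM in WT adipocytes of the same mice. For both genes every Taz-KO mouse lay above every WT mouse. The log2 fold changes were 1.98 (SE 0.42, adjusted p = 0.04079) for Nsdhl and 1.56 (SE 0.30, adjusted p = 0.03744) for Sc5d. The values of mouse 5301 rested on 17 Nsdhl and 11 Sc5d UMIs in 22 nuclei.

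The synthesis genes that passed the filter on low counts leaned the same way in adipocytes. All 12 that could be tested had a positive log2 fold change, with a median of 0.96 against 0.01 over all genes, although 2 passed the test and 4 had an unadjusted p under 0.05. Examples that did not pass the test are Cyp51 (1.36), a demethylase of lanosterol, and Fdps (1.74), which makes farnesyl diphosphate. Fdps stood at 12.2, 22.3 and 0 CPM in Taz-KO mice 4910, 5300 and 5301 and at 2.15 to 8.10 CPM in WT mice. A gene could pass the filter largely through the Taz-KO mice, as Fdps did. The shared sign is therefore not independent of the filter and is given as a description only. Srebf1 (0.79, adjusted p = 0.349) and Abca1 (0.25, adjusted p = 0.550) were not called. The difference between the change in cardiomyocytes and in adipocytes was -2.38 for Nsdhl (limma, adjusted p = 0.0809) and -1.84 for Sc5d (adjusted p = 0.0773), and neither passed. The cardiomyocyte markers summed to 2948 to 10280 CPM in Taz-KO and to 9485 to 15880 CPM in WT adipocytes, and their part was not tested.

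Both adipocyte calls depended on the mice. The call for Nsdhl was lost without WT mouse 4686, 4909 or 5355 or Taz-KO mouse 4910 or 5300 (adjusted p 0.0526 to 0.211), and that for Sc5d without WT mouse 4686, 4909 or 5355 or Taz-KO mouse 5300 (0.0754 to 0.211). When an ambient share was subtracted, the log2 fold changes were 2.18 and 1.72 and the adjusted p 0.0594 and 0.0591. Without both WT mice 5355 and 5356 they were 1.80 and 1.44, with adjusted p of 0.171 and 0.154.

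In the remaining cell types 0 of the other pathway genes passed the test. They numbered 49 in fibroblasts, 48 in ECs, 48 in macrophages, 43 in pericytes, 44 in mesothelial cells and 36 in lymphatic endothelial cells. An unadjusted p under 0.05 was reached by 0, 3, 2, 0, 1 and 1 of them, beside 1741 of all 17767 genes in fibroblasts, 1280 of 16184 in ECs, 877 of 14129 in macrophages, 622 of 12828 in pericytes, 881 of 12379 in mesothelial cells and 533 of 10437 in lymphatic endothelial cells. DESeq2 called 0 in each.

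Genes with a pattern like that of Soat2 and of Insig1 were sought over the 39 sums of the 8 mice and 5 cell types, among 16327 genes with a mean of at least 1 CPM. The highest Pearson r with Soat2 (of log2 of CPM plus 1) were 0.94 for Tfcp2l1, a transcription factor gene, 0.94 for Vmn2r3, 0.93 for Lars, the cytosolic leucyl-tRNA synthetase, 0.92 for Gm20618 and 0.92 for Iars, the isoleucyl-tRNA synthetase. For Insig1 they were 0.92 for Srebf1, 0.91 for Fasn (fatty acid synthase), 0.91 for Agpat2, 0.90 for Pygl (liver glycogen phosphorylase) and 0.90 for Hmgcs1. The sums of a mouse share their library, and sums of the same cell type share its composition, so the values of r describe these sums only.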

How the data were processed

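For each library the authors deposited a matrix of unnormalized UMI counts from Cell Ranger 6.0.1 (mm10, intronic reads counted), taken before their correction for ambient RNA and doublets, which was not repeated here with their tools. The mouse was the replicate, and p-values judge the difference between genotypes against the spread between mice. Groups came from the genotype label.

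Mitochondrial genes, barcodes with fewer than 800 UMIs or 250 genes, and the highest-scoring doublets (0.8% per 1000 nuclei, at most 10%) were removed. The remaining nuclei were embedded in 15 principal components corrected for the mouse, and were clustered by the Leiden method (20 neighbours, resolution 0.9; Python 3.11.15, numpy 2.4.6, python-igraph 0.11.9). Clusters were named from marker genes by a rule that was settled after their marker scores were seen.

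Within each mouse with at least 10 nuclei of a type, their UMIs were added up. The sums went into the quasi-likelihood F test of edgeR 4.0.16 (R 4.3.3, TMM scaling, filterByExpr), with Benjamini-Hochberg adjustment over all genes of the cell type and a call at 0.05. This replaces the study's test on nuclei (MAST), which adjusted for the mouse as a latent variable. Counts were summed per mouse here, since nuclei of a mouse are not replicates. Changes were compared between cell types with limma 3.58.1 on the difference of log2 CPM within each mouse (prior count 2). CPM values are UMIs per 1000000 UMIs of a sum. The edgeR step was run on counts simulated from its own fits in cardiomyocytes and fibroblasts. The limma step was run on simulated differences between these 2 cell types. Such data follow the assumptions of the models, so these runs do not test them, and the adipocyte fit was not simulated.

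Named were the 8 genes, Scap, Insig2, Srebf1 and Abca1, up to 8 called genes of the list per cell type with the largest change, and the 5 genes most like Soat2 and Insig1 in pattern. Gramd1a, Gramd1b, Fdps, Cyp51 and the neighbours of Soat2 were named outside that rule after their values were seen. The 8 genes and all lists were chosen with earlier results of these data known. Alternatives were DESeq2 1.42.0, its size factors, no filter on low counts, a subtracted ambient share of 0.2, at least 2000 UMIs per barcode, resolution 0.5, a stricter call, and leaving out mice. Arntl, Per2 and Hlf were named after their values were seen. Some genes of the list are in its counts but are not reported here by name. Floors cover counting error only, SDs describe the spread between mice, and SEs come from the edgeR fit.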

Additional observations from a re-analysis of the deposited data

Results flagged for a closer look

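Of 90 groups of mice checked for a value far from the others, 2 held one, where chance alone gives about 1 in 20. Hmgcs1 in the cardiomyocytes of WT mouse 5356 was lower than in the other WT mice, at 11.5 CPM. Abca1 in the cardiomyocytes of WT mouse 5355 was higher, at 108 CPM.

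The effect of the genotype differed between cell types for Gramd1c and Cyp27a1 by a test of the difference itself. For Gramd1c the change in cardiomyocytes exceeded that in fibroblasts by 3.67, in endothelial cells by 3.79, in macrophages by 4.17 and in adipocytes by 3.62 on the log2 scale. For Cyp27a1 it exceeded that in fibroblasts by 1.44 and in macrophages by 1.60. The differences for Cyp27a1 from endothelial cells (1.69, limma, adjusted p = 0.255) and adipocytes (2.59, adjusted p = 0.0613) were not called, and each of its 2 calls was lost in 6 of 8 fits that left out a mouse.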

How the results depend on the processing

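Without a given mouse, the 8 calls among the other pathway genes in cardiomyocytes became 3 to 7, without both small Taz-KO libraries 3, without both WT mice apart in clock genes 3, and at the study's thresholds (adjusted p under 0.001, absolute log2 over 0.58) 2. DESeq2 called 11. The 2 calls in adipocytes became 0 to 4 without a mouse, 4 without both small libraries, 0 without both WT mice apart in clock genes, 4 with no filter on low counts, 0 with ambient subtraction and 0 at the study's thresholds. Among the 8 genes, Soat2 was called in pericytes (1; 0 to 1 without a mouse), mesothelial cells (1) and lymphatic endothelial cells (1) with no filter, in the first 2 (1 each) without both small libraries, and in pericytes (1) without both WT mice apart in clock genes. It entered these fits only through the Taz-KO mice, in which it was chosen as high, so these calls support nothing. The cardiomyocyte log2 fold change of Soat2 was 8.87 with ambient subtraction, 8.64 without both WT mice apart in clock genes and 7.33 to 7.93 without a mouse. The thinned share of Taz-KO cardiomyocytes with a Soat2 UMI was 2.36% at 500 and 9.50% at 2000 UMIs. The mean ratio of Soat2 to Soat1 UMIs, 11.7, was 8.59 to 12.9 without a Taz-KO mouse.

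Leaving out both WT mice apart in clock genes, and leaving out mice for the difference between cell types, was chosen after seeing the data. The calls among pathway genes became 1 to 2 against fibroblasts (main value 2; 1 without both small libraries), 1 to 2 against endothelial cells (1), 0 to 2 against macrophages (2) and 0 to 2 against adipocytes (1; 2 without both small libraries). Without both WT mice apart in clock genes they were 1, 0, 0 and 1. The causes were not tested, beyond the fewer mice or genes that these settings leave. No called value changed sign. Values that passed no test changed sign in 52 settings of 16 member values and 62 settings of 20 named genes. No paired analysis was possible because the genotypes share no replicate numbers. Depth limits the values of Taz-KO mice 4685 and 5301, such as the lymphatic endothelial cells of 5301, where a count of 0 allows 44.7 CPM.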
